A study of Mus musculus with 12 samples.

Results

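The Sox genes of the neural lineage were followed in neural cells grown from mouse embryonic stem cells (mESC). The 9 genes were taken by name from the annotation of the array. They are the SoxB genes Sox1, Sox2, Sox3 and Sox21, the SoxC genes Sox4 and Sox11, the SoxD genes Sox5 and Sox6 and the SoxE gene Sox9, out of 31732 genes and unnamed probes on the array. All 9 had a probe, 16 probes in all, and the brightest probe of each gene passed the filter on dim signals. The values are log2 ratios of sample RNA (Cy5) to a common mESC RNA (Cy3), so 0 is the mESC level, and a difference of 1 is a 2-fold difference.

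Each of the 4 groups had 3 biological replicates, and 12 arrays were measured. Step 4 enriched cells were neural precursors after 5 days in bFGF (10 ng/ml) that magnetic beads had selected with an antibody to PSA-NCAM, the polysialylated neural cell adhesion molecule, and step 4 control cells were unsorted precursors. Step 5 enriched and step 5 control cells were the same pair after 7 days of neuronal differentiation in ascorbic acid (200 µM) with bFGF withdrawn. The starting mESC of every group were C57BL/6 cells with an actin-driven eGFP transgene and had been grown on mouse fibroblast feeders, which were depleted before embryoid bodies were formed. The labels do not say whether step 5 enriched cells were sorted before or after those 7 days. Unsorted control cells contain the cells that sorting selects, so each enrichment difference sets selected cells against a mixture.

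Sox proteins bind DNA through a high-mobility-group (HMG) box and act with partner factors. The SoxB1 proteins Sox1, Sox2 and Sox3 keep neural progenitors undifferentiated, and Sox21 counteracts them. Sox2 also acts in pluripotent cells, where it pairs with Oct4, the product of Pou5f1. The SoxC proteins Sox4 and Sox11 switch on genes of young neurons, Sox9 is needed for neural stem cells and glia, and Sox5 and Sox6 have no transactivation domain of their own and modulate other Sox proteins.

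Arrays of a group correlated across genes, which are not independent replicates, with an r of 0.897 to 0.963 among step 4 enriched, 0.736 to 0.85 among step 4 control, 0.94 to 0.962 among step 5 enriched and 0.662 to 0.918 among step 5 control arrays. The control arrays of slide 2, which is replicate 2 of each group, stood apart. Among the 3 control arrays the one on slide 2 was the lowest for 8 of the 9 Sox genes at step 4 (all but Sox6) and for 8 at step 5 (all but Sox21), where it was the lowest for 39.7% and 46.1% of all tested genes. The mean log2 ratio of 7 endoderm markers was 2.86 and 3.43 on the slide 2 control arrays of step 4 and step 5, against 0.6 to 1.44 on the other 4 control arrays, while that of 6 neuron markers was 0.36 and 0.28, against 1.46 to 2.65. The slide 2 enriched arrays were high in endoderm markers too, at 1.75 and 1.81, against 0.03 to 0.28 on the other enriched arrays. Their neuron marker means were not low (3.57 and 3.48, against 2.02 to 3.91). Values without the 2 control arrays of slide 2 are given below where they change the call of a Sox gene or of a named gene of a list.

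**Figure D1:**
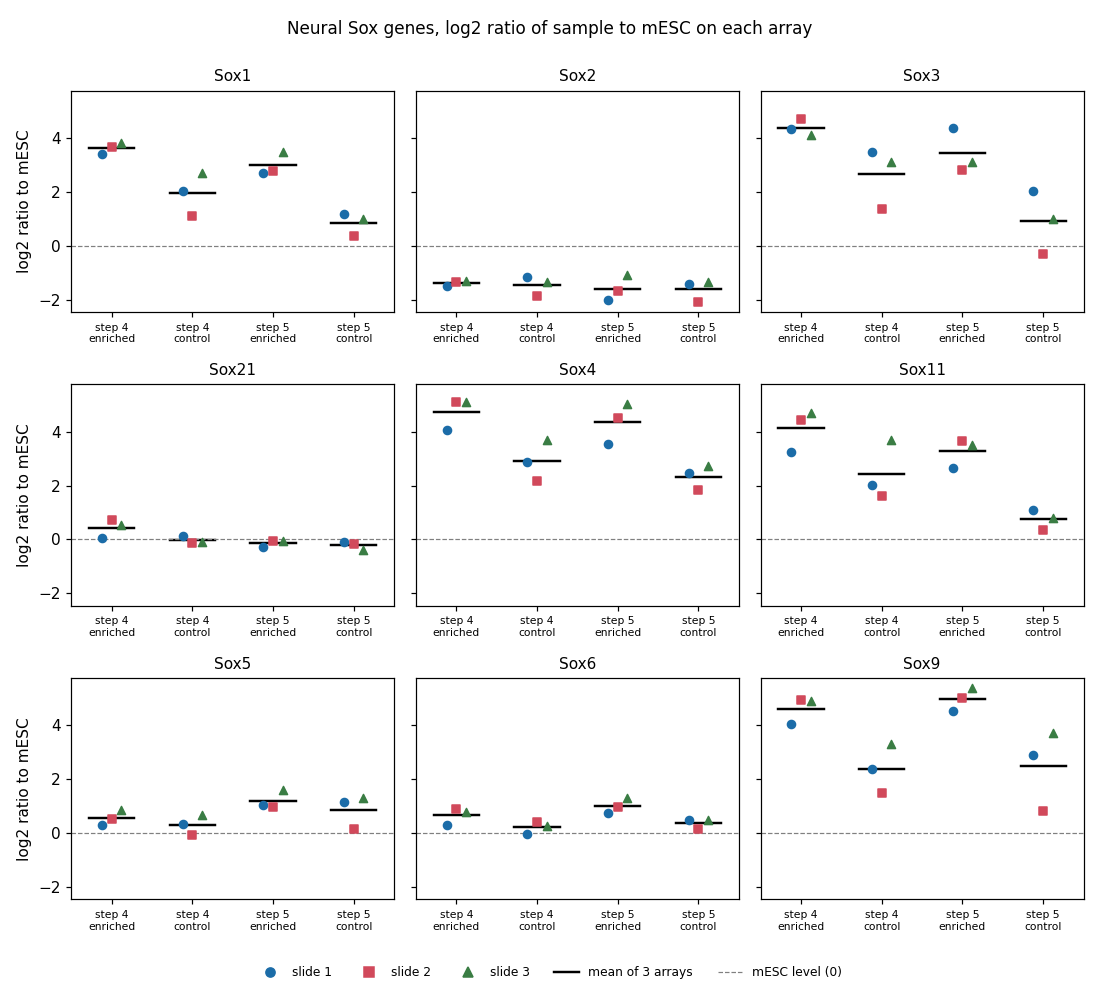
Log2 ratio of sample to mESC (y axis) of the brightest probe of each Sox gene on each of 12 arrays, by group (x axis); points are arrays, coloured by slide, and bars are means of 3. Sox1, Sox3, Sox4, Sox11 and Sox9 lie above mESC in enriched cells, Sox2 lies below it in every group, and Sox21, Sox5 and Sox6 lie between -0.4 and 1.6.

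The first comparison asked which Sox genes differed between enriched and control cells. Of the 9 genes, 4 were higher in step 4 enriched cells (Sox1, Sox4, Sox11 and Sox9) and 6 were higher in step 5 enriched cells (the same 4 with Sox3 and Sox6), and none was lower at either step (limma, adjusted p under 0.05 over all genes). Sox2, Sox21 and Sox5 passed at neither step. Sox6 entered the test only through the enriched groups, where its dim probe cleared background on all arrays. Its call is therefore not independent of the filter. Over all 22321 tested genes 31.1% passed at step 4, 15% as higher and 16.2% as lower in enriched cells, and 40.4% passed at step 5, 20.3% as higher and 20.2% as lower. The median difference of the 9 genes was 1.67 at step 4 and 2.03 at step 5 on the log2 scale, against 0.01 and -0.01 over all tested genes. The arrays of enriched and control cells did not overlap for 4 of the 9 genes at step 4 and for 6 at step 5, Sox6 among them, always with enriched cells higher. Over all genes this held for 22.1% and 25.6% with enriched cells higher, and for 46.9% and 51.1% in either direction. In bulk RNA, more cells of a type and more RNA per cell cannot be told apart.

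**Figure D2:**
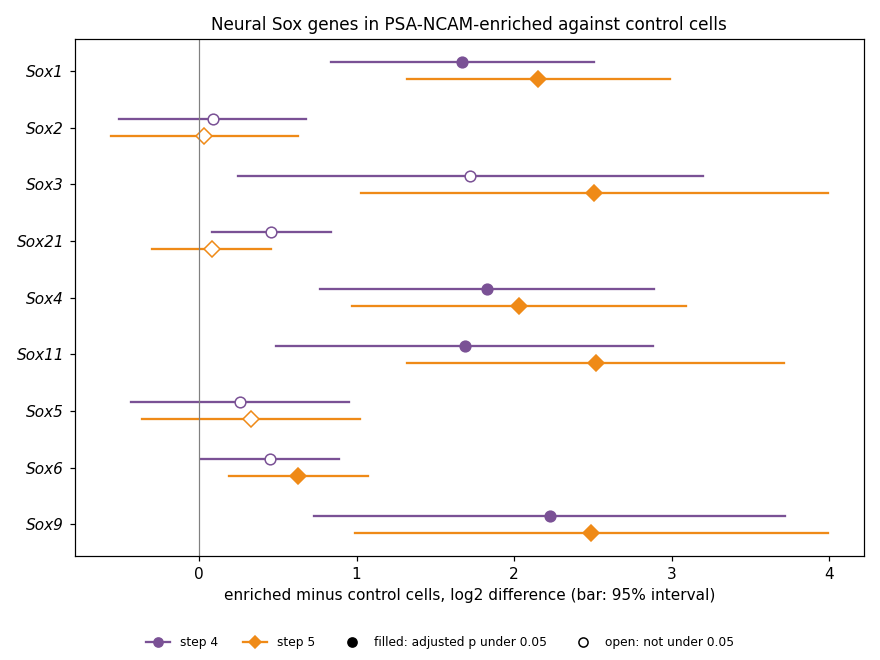
Log2 difference of enriched minus control cells (x axis) for each Sox gene (y axis) at step 4 and step 5, with 95% intervals from limma; filled symbols passed at adjusted p under 0.05. Sox1, Sox4, Sox11 and Sox9 passed at both steps, with differences of 1.67 to 2.52, and Sox2 lies at 0.09 and 0.03.

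Sox1, the SoxB1 gene most specific to the neural plate, was read by a probe at chr8:12399496-12399555 (mm9, plus strand). Its log2 ratios were 3.39, 3.65 and 3.8 in step 4 enriched cells, against 2.02, 1.1 and 2.71 in step 4 control cells, and 2.72, 2.79 and 3.5 in step 5 enriched cells, against 1.19, 0.36 and 0.99 in step 5 control cells. Every enriched array lay above every control array of its step. The gene rose 3.19-fold at step 4 (log2 1.67, SE 0.38, limma adjusted p = 0.0088) and 4.45-fold at step 5 (log2 2.15, SE 0.38, adjusted p = 0.00163). Without the control arrays of slide 2 the differences were 1.25 (adjusted p = 0.0138) and 1.91 (adjusted p = 0.00154). The array holds another Sox1 probe (chr8:12397503-12397562, Cy5 signals of 162 to 271.5, against 462.9 to 5784 for the brightest), which gave 0.07 (SE 0.09, adjusted p = 0.637) at step 4 and 0.23 (SE 0.09, adjusted p = 0.0723) at step 5, so the other probe did not pass at either step.

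Sox3, the X-linked SoxB1 gene, was read at chrX:58144564-58144623 (mm9, minus strand). It had log2 ratios of 4.33, 4.71 and 4.1 in step 4 enriched cells, against 3.5, 1.37 and 3.11 in step 4 control cells, and of 4.37, 2.81 and 3.1 in step 5 enriched cells, against 2.04, -0.29 and 1 in step 5 control cells. The groups did not overlap at either step, and the control array of slide 2 lay far below the other 2 at both. The difference was 1.72 at step 4 (SE 0.67, adjusted p = 0.0733; 0.0218 with the slide as a block) and 2.51 at step 5 (SE 0.67, adjusted p = 0.013), a 5.71-fold rise. Within slides 1, 2 and 3 the step 4 difference was 0.83, 3.35 and 0.99. The step 5 call was lost without enriched 1 of that step (adjusted p = 0.0502), and the step 4 difference passed without control 2 of step 5 (adjusted p = 0.0439).

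Sox2 was the SoxB1 gene that passed at neither step between enriched and control cells. Its probe at chr3:34550773-34550832 (mm9, plus strand) gave log2 ratios of -1.49, -1.35 and -1.31 in step 4 enriched cells, against -1.18, -1.87 and -1.36 in step 4 control cells. At step 5 they were -2.02, -1.67 and -1.09 in enriched cells, against -1.42, -2.09 and -1.36 in control cells. All 12 arrays lay below mESC, and the 4 groups overlapped. The difference was 0.09 at step 4 (95% interval -0.51 to 0.68, adjusted p = 0.839) and 0.03 at step 5 (95% interval -0.56 to 0.63, adjusted p = 0.937).

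Pou5f1, whose product pairs with Sox2 in pluripotent cells, passed as lower in enriched cells at both steps. Its log2 ratios were -4.89, -3.5 and -4.94 in step 4 enriched cells, against -0.62, -0.71 and -0.66 in step 4 control cells, and -4.37, -2.89 and -4.85 in step 5 enriched cells, against -0.5, -0.7 and -0.86 in step 5 control cells. It fell by 3.78 at step 4 (SE 0.48, adjusted p = 0.000548) and by 3.35 at step 5 (SE 0.48, adjusted p = 0.000544) in enriched cells. The mean log2 ratio of 5 pluripotency markers ran from -4.93 to -3.59 on step 4 enriched arrays, against -0.95 to -0.69 on step 4 control arrays, and from -4.74 to -3.01 on step 5 enriched arrays, against -0.8 to -0.74 on step 5 control arrays. All 5 markers (Pou5f1, Nanog, Zfp42, Dppa4 and Esrrb) passed as lower at both steps, where 16.2% (step 4) and 20.2% (step 5) of all tested genes did. Their part in the Sox2 level was not tested.

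**Figure D3:**
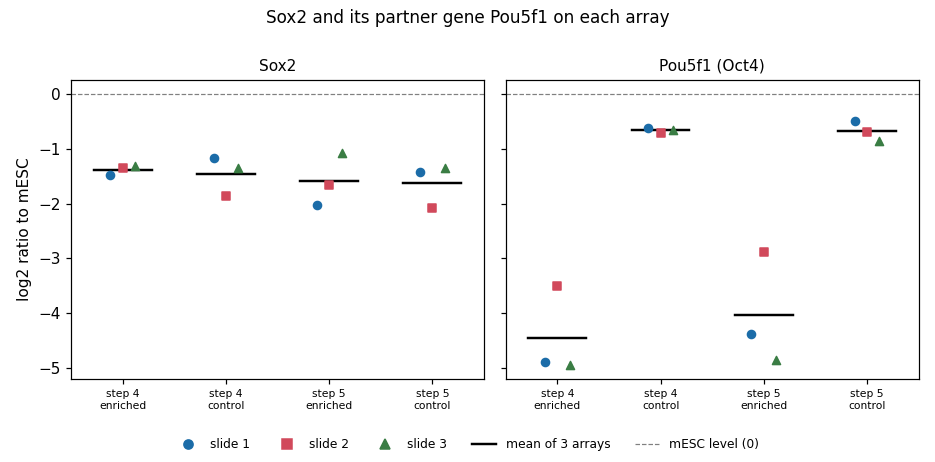
Log2 ratio to mESC (y axis) of Sox2 and Pou5f1 on each of 12 arrays, by group (x axis); points are arrays, coloured by slide, and bars are means of 3. Sox2 lies between -2.09 and -1.09 in all 4 groups, while Pou5f1 lies between -4.94 and -2.89 in enriched cells and between -0.86 and -0.5 in control cells.

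Sox21, the SoxB2 gene, gave unlike values with its 2 probes. The brighter of its 2 probes (chr14:118633788-118633847, mm9, minus strand) read 0.04, 0.71 and 0.54 in step 4 enriched cells, against 0.13, -0.13 and -0.08 in step 4 control cells, and -0.29, -0.07 and -0.05 in step 5 enriched cells, against -0.1, -0.16 and -0.4 in step 5 control cells. The difference was 0.46 at step 4 (SE 0.17, adjusted p = 0.0661) and 0.08 at step 5 (SE 0.17, adjusted p = 0.734). Its dimmer probe gave 1.21 at step 4 (SE 0.41, adjusted p = 0.0462) and 0.82 at step 5 (SE 0.41, adjusted p = 0.137), so the 2 probes fall on different sides of the threshold at step 4. In step 4 enriched cells the brighter probe lay 0.43 above mESC (adjusted p = 0.00892) and the dimmer one 1.51 (adjusted p = 0.000852), and in step 5 enriched cells they lay at -0.13 (adjusted p = 0.34) and 0.7 (adjusted p = 0.0478). Without enriched 1 of step 4 the brighter probe passed too (0.65, adjusted p = 0.00901).

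The SoxC genes Sox4 and Sox11 were both higher in enriched cells. Sox4 (brightest probe at chr13:29040826-29040885, mm9, minus strand) had log2 ratios of 4.05, 5.09 and 5.09 in step 4 enriched cells, against 2.88, 2.16 and 3.71 in step 4 control cells, and of 3.54, 4.52 and 5.02 in step 5 enriched cells, against 2.46, 1.82 and 2.71 in step 5 control cells. No enriched array was as low as a control array of its step. The gene rose 3.55-fold at step 4 (log2 1.83, SE 0.48, adjusted p = 0.0165) and 4.09-fold at step 5 (log2 2.03, SE 0.48, adjusted p = 0.00723). Both other Sox4 probes passed too, with differences of 1.32 and 1.25 at step 4 and 1.64 and 1.36 at step 5. With the slide 2 controls left out the step 4 difference was 1.45 (adjusted p = 0.0552), and it also missed the threshold without control 2, enriched 2 or enriched 3 of step 4 (adjusted p = 0.0607 to 0.0655).

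Sox11 was read at chr12:28019541-28019600 (mm9, minus strand). Its log2 ratios were 3.25, 4.44 and 4.71 in step 4 enriched cells, against 2.03, 1.63 and 3.68 in step 4 control cells, and 2.65, 3.65 and 3.5 in step 5 enriched cells, against 1.11, 0.35 and 0.78 in step 5 control cells. At step 4 the control array of slide 3 lay above the enriched array of slide 1, and at step 5 the groups were apart. The gene rose 3.22-fold at step 4 (log2 1.69, SE 0.54, adjusted p = 0.0368) and 5.73-fold at step 5 (log2 2.52, SE 0.54, adjusted p = 0.00447), and its other probe gave 1.79 and 2.33. When the slide 2 controls were left out, the step 4 difference was 1.28 (adjusted p = 0.133) and the step 5 difference 2.32 (adjusted p = 0.0138). The step 4 call was lost on leaving out control 1, control 2, enriched 2 or enriched 3 of step 4 or control 3 of step 5, each alone.

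Sox9, which marks neural stem cells and astrocytes, was read by 10 spots of the same probe (chr11:112648809-112648868, mm9, plus strand). Its log2 ratios were 4.05, 4.93 and 4.89 in step 4 enriched cells, against 2.39, 1.48 and 3.31 in step 4 control cells, and 4.52, 5.01 and 5.39 in step 5 enriched cells, against 2.91, 0.82 and 3.72 in step 5 control cells. The groups were apart at both steps. The gene rose 4.68-fold at step 4 (log2 2.23, SE 0.68, adjusted p = 0.0302) and 5.62-fold at step 5 (log2 2.49, SE 0.68, adjusted p = 0.0143). The log2 differences were 1.77 (adjusted p = 0.0162) and 1.66 (adjusted p = 0.0145) with the slide 2 controls left out. Leaving out control 1, control 2, enriched 2 or enriched 3 of step 4 alone took away the step 4 call, with adjusted p = 0.0701 to 0.113, and leaving out enriched 3 of step 5 took away the step 5 call (adjusted p = 0.0522).

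Sox6, whose product forms dimers with Sox5, passed at step 5. Its only probe (chr7:122615418-122615477, mm9, minus strand) was dim, with Cy5 signals of 72.3 to 339.9 over local backgrounds of 46.5 to 55. It read 0.31, 0.9 and 0.78 in step 4 enriched cells, against -0.03, 0.4 and 0.28 in step 4 control cells, and 0.74, 0.96 and 1.31 in step 5 enriched cells, against 0.48, 0.15 and 0.48 in step 5 control cells. The difference was 0.45 at step 4 (SE 0.2, adjusted p = 0.11) and 0.63 at step 5 (SE 0.2, adjusted p = 0.0276). The probe passed the filter only through the enriched groups. It was well above background on 3 and 3 of their arrays, against 1 of step 4 control and 2 of step 5 control cells. The step 5 call is therefore not independent of the filter, and the size of the difference is uncertain. Over the alternatives it ran from 0.48 to 2.27 at step 5, the highest with the deposited values. Without the control arrays of slide 2 the step 5 value was 0.52 (adjusted p = 0.0941), and it did not pass without control 2, enriched 2 or enriched 3 of step 5 either. The step 4 difference passed without enriched 1 of step 4 (0.63, adjusted p = 0.0358).

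Sox5 has 3 probes, and they did not read alike. Their first 30 bases are shown 5′ to 3′, with C and T in capitals, because base make-up sets the brightest apart.
Sox5 brightest: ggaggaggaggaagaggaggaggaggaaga
Sox5 second: TTaCaagCaaaaaCgTCaTCaagaagaaga
Sox5 dimmest: CTgggCCCaTgggCaaaTTCaaTCagaTgC
The brightest probe has no C or T in any of its 60 bases, as have 23 of the 39429 probes on the array (0.0583%), and its annotated position, chr6:143776945-143776971 (mm9, minus strand), spans 27 bases. The others lie at chr6:143781520-143781579 and chr6:143787982-143788041.

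The brightest Sox5 probe was bright in Cy5 (33970 to 68560) and in Cy3 (9487 to 16280) on every array. It read 0.32, 0.54 and 0.86 in step 4 enriched cells, against 0.33, -0.07 and 0.67 in step 4 control cells, and 1.03, 0.97 and 1.6 in step 5 enriched cells, against 1.16, 0.16 and 1.29 in step 5 control cells. Its enrichment differences were 0.26 (SE 0.31, adjusted p = 0.565) and 0.33 (SE 0.31, adjusted p = 0.438). Over the 12 arrays it correlated at r = 0.976 with the mean of the 22 other probes made only of A and G, and at r = 0.327 with the second Sox5 probe. Of these 23 probes, the Sox5 probe included, none passed at step 4 and 1 passed at step 5 in a fit over probes. Among all tested genes, each by its brightest probe, 31.1% and 40.4% passed at those steps. Whether the probe measures Sox5 RNA was not tested.

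Both other Sox5 probes were near background, with Cy5 signals of 67.1 to 122.3 and 54.9 to 108.1. The second read 0.43 ± 0.14 in step 4 enriched cells and 0.1 ± 0.13 in step 4 control cells, and 0.53 ± 0.11 in step 5 enriched cells and 0.02 ± 0.14 in step 5 control cells (mean ± SD, n = 3 each). Its Cy5 signal cleared background on 3 of 3 arrays of each enriched group, against none of step 4 control and 1 of step 5 control cells, so it passed the filter only through the enriched groups. Its step 4 difference of 0.33 did not pass (SE 0.12, limma adjusted p = 0.0587). At step 5 the difference was 0.51 (SE 0.12, adjusted p = 0.00763), with a size that is uncertain because 2 of 3 control arrays were at background. That call is not independent of the filter. The dimmest probe was at background on all control arrays and passed the filter only through step 4 enriched cells. Its differences of 0.24 at step 4 (SE 0.14, adjusted p = 0.207) and 0.11 at step 5 (SE 0.14, adjusted p = 0.567) did not pass.

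**Figure D4:**
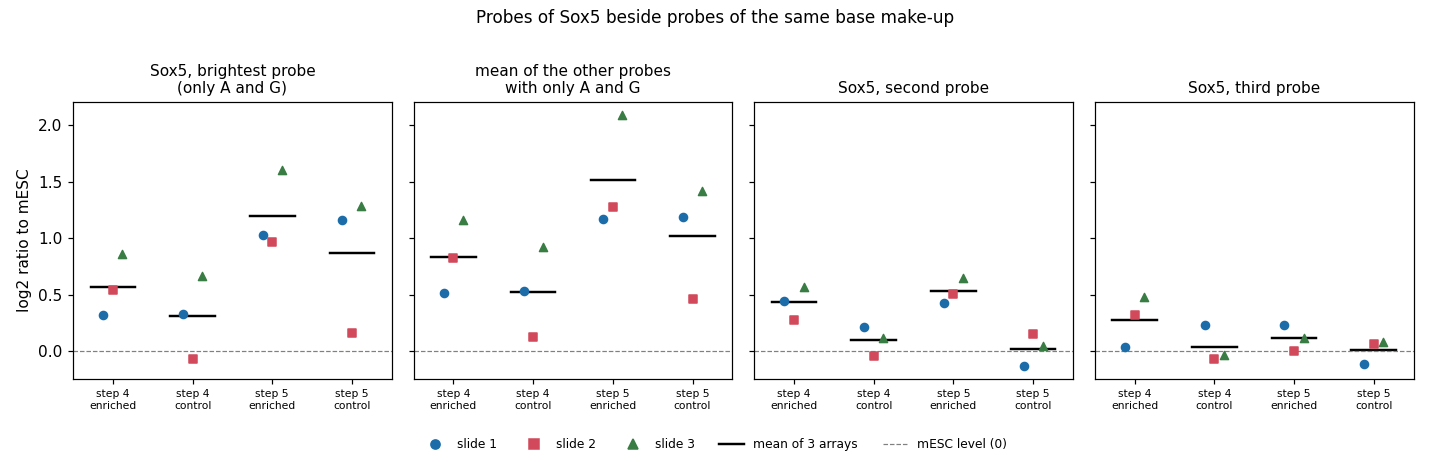
Log2 ratio to mESC (y axis) on each of 12 arrays, by group (x axis), for the 3 Sox5 probes (the third is the dimmest) and for the mean of the other 22 probes made only of A and G; points are arrays, coloured by slide, and bars are means of 3. The brightest Sox5 probe follows the mean of the other A and G probes array by array (r = 0.976), and both dimmer probes lie nearer to 0.

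The promoters of Sox1, Sox4 and Sox11, which rose together at both steps, are shown beside that of Sox2, which passed at neither. They run from 250 bases before to 50 after the RefSeq transcript start (GRCm38.p6) and lie at chr8:12395269-12395568 (plus strand), chr13:28953650-28953949 (minus strand), chr12:27342669-27342968 (minus strand) and chr3:34649745-34650044 (plus strand). Capitals mark matches on either strand to the E-box CANNTG, the Sox-type motifs ACAAAG and ACAATG and the POU-type octamer ATGCAAAT.
Sox1: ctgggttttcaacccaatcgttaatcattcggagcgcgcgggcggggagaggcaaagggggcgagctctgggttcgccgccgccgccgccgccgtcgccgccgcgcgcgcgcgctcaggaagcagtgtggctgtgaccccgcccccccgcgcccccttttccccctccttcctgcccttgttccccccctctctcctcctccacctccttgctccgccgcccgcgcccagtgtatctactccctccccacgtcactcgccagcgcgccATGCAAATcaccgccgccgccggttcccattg
Sox4: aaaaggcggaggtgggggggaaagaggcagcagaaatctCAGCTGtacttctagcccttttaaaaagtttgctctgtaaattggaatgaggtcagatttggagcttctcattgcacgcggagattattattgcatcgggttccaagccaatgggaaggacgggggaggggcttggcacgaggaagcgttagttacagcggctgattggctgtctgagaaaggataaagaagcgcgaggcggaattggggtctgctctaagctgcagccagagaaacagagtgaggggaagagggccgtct
Sox11: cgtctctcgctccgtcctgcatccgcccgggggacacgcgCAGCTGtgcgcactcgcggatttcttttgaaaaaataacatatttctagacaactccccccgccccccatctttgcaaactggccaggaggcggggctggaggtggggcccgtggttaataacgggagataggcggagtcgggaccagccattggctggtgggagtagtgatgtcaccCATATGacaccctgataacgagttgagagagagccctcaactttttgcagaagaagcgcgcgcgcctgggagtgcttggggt
Sox2: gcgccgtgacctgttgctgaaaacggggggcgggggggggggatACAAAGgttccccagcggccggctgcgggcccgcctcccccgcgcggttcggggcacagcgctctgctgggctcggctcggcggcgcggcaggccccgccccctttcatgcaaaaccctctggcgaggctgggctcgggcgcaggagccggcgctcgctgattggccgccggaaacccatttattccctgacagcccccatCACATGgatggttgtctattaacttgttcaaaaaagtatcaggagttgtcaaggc
Sox1 has 1 octamer match, Sox4 has 1 E-box, Sox11 has 2 E-boxes, and Sox2 has 1 E-box and 1 ACAAAG. Among 32851 mouse promoters of this length 72.3% hold an E-box, 18.7% ACAAAG, 12.6% ACAATG and 1.74% the octamer. None of these motifs was common to Sox1, Sox4 and Sox11. Sox9, which also passed as higher at both steps, had no promoter among the RefSeq sequences.

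The second comparison asked how the Sox genes differed between step 5 and step 4. None of the 9 passed in enriched cells, where 6.42% of all genes did, and none passed in control cells, where no gene did. In control cells 1917 genes had an unadjusted p under 0.05, and the lowest adjusted p was 0.147. In enriched cells the lowest adjusted p among the 9 belonged to Sox21, with a difference of -0.56 (SE 0.17, adjusted p = 0.0825) and no overlap between steps, as had 28.8% of all genes. It passed without enriched 1 of step 4 (-0.76, adjusted p = 0.0204). With the slide as a block 2440 genes passed in enriched cells, against 1433 without it, and again none of the 9 did.

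None of these values passed, and they are given for their size. In enriched cells Sox1 differed by -0.61, Sox2 by -0.21, Sox3 by -0.95, Sox4 by -0.38 and Sox11 by -0.87, while Sox6 differed by 0.34 and Sox9 by 0.35. The brightest Sox5 probe read 0.63, and the other Sox5 probes read 0.1 and -0.16. In control cells Sox3 differed by -1.74 (SE 0.67, adjusted p = 0.464), Sox11 by -1.7 (SE 0.54, adjusted p = 0.363) and Sox1 by -1.09 (SE 0.38, adjusted p = 0.405), each lower at step 5 on 3 of 3 slides. Of these only Sox11 had no overlap between steps, as had 12.6% of all genes. These values missed the threshold, so the data do not show whether the genes changed with time.

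The difference between the 2 enrichment effects was tested as an interaction. It passed for none of the 9 genes and for no gene at all, with 1574 genes at an unadjusted p under 0.05 and a lowest adjusted p of 0.0545. Among the 9 it ran from -0.37 for Sox21 (SE 0.24, adjusted p = 0.846) to 0.83 for Sox11 (SE 0.76, 95% interval -0.86 to 2.52, adjusted p = 0.923). Sox3 and Sox6 passed at step 5 and not at step 4, but their effects were not shown to differ between steps (0.79, adjusted p = 0.95, and 0.18, adjusted p = 0.963).

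The third comparison set each group against mESC. All 9 genes differed from mESC in step 4 enriched cells, 6 in step 4 control cells, 8 in step 5 enriched cells and 5 in step 5 control cells, where 66.9%, 38.8%, 71.4% and 44.6% of 22451 genes did. In the same order of groups 8, 5, 7 and 4 of the 9 passed as higher, where 35.4%, 21.4%, 38.4% and 25.7% of all genes did. As lower, 1 passed in each, where 31.5%, 17.4%, 33% and 19% of all genes did. The test leaves out the spread of the mESC RNA itself, and without dye swaps a dye effect cannot be told apart. These 4 comparisons share that RNA. In step 4 enriched cells the calls of Sox21 and Sox5 were lost without enriched 2 (adjusted p = 0.0928 and 0.105) or enriched 3 (adjusted p = 0.0596 and 0.205) of that step, and that of Sox5 also without control 1 of step 4 (adjusted p = 0.0523). The count in step 4 enriched cells ran from 7 to 9 over all alternatives. In step 5 control cells the count includes Sox5 by its brightest probe (0.87, adjusted p = 0.00883). Both other Sox5 probes read near 0 there (0.02, adjusted p = 0.844, and 0.01, adjusted p = 0.928). That Sox5 call was lost in 2 of the 12 fits with a single array left out.

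Sox2 was the only one of the 9 that passed as lower than mESC, and it did so in all 4 groups. It was 2.61-fold lower in step 4 enriched cells (log2 -1.38, SE 0.19, adjusted p = 8.19e-05), 2.77-fold in step 4 control cells (log2 -1.47), 3.02-fold in step 5 enriched cells (log2 -1.59) and 3.08-fold in step 5 control cells (log2 -1.62). Its fellow SoxB1 genes ran the other way. Sox1 was 12.3-fold and Sox3 20.8-fold above mESC in step 4 enriched cells, against 3.84-fold and 6.31-fold in step 4 control cells. At step 5 Sox1 was 8.01-fold and Sox3 10.8-fold above mESC in enriched cells, against 1.8-fold (log2 0.85, SE 0.27, adjusted p = 0.0252) and 1.88-fold (log2 0.91, SE 0.47, adjusted p = 0.139) in control cells. Among step 5 control arrays, Sox1 did not pass without control 1 (0.67, adjusted p = 0.14) or control 3 (0.77, adjusted p = 0.115), and Sox3 passed without control 2 (1.52, adjusted p = 0.0377). These Sox1 values are those of its brightest probe. The other Sox1 probe read 0.26 in step 4 enriched cells (adjusted p = 0.00486) and 0.2 in step 4 control cells (adjusted p = 0.0378). At step 5 it read 0.14 in enriched (adjusted p = 0.0789) and -0.09 in control cells (adjusted p = 0.29).

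Sox4 was above mESC in all 4 groups, at 26.8-fold in step 4 enriched and 7.55-fold in step 4 control cells, and at 20.6-fold in step 5 enriched and 5.03-fold in step 5 control cells. Both other Sox4 probes also passed in all 4 groups with smaller values. In step 4 enriched cells they read log2 3.63 and 2.72, against 4.74 for the brightest. Sox11 was above mESC 17.6-fold in step 4 enriched and 5.45-fold in step 4 control cells, and 9.61-fold in step 5 enriched cells. In step 5 control cells Sox11 read 0.75 (SE 0.38, adjusted p = 0.136). For Sox9 the mESC channel was not well above background on any array, so its folds are lower bounds, taken after scaling the channels between arrays and against each array's dimmest signal well above background. They were at least 24.8-fold in step 4 enriched, 5.31-fold in step 4 control, 31.9-fold in step 5 enriched and 5.27-fold in step 5 control cells, while the log2 ratios within arrays, not scaled in that way, averaged 4.62, 2.39, 4.97 and 2.48. Sox6 was at background in mESC too, and its log2 ratio averaged 0.67 in step 4 enriched cells (adjusted p = 0.00159) and 1 in step 5 enriched cells (adjusted p = 7.67e-05), values of uncertain size for that reason. In step 5 control cells Sox6 read 0.37 (adjusted p = 0.0523, and 0.0283 with the slide as a block).

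By group mean, Sox1, Sox3, Sox4 and Sox11 shared an order, with step 4 enriched first, then step 5 enriched, step 4 control and step 5 control cells. Only 2 neighbouring pairs in those 4 orders were apart over their 3 arrays: step 5 enriched and step 4 control cells for Sox1, and step 4 control and step 5 control cells for Sox11. Sox6 and Sox9 were highest in step 5 enriched cells, followed by step 4 enriched, step 5 control and step 4 control cells, and for Sox9 the enriched groups stood apart from the control groups. For Sox2, Sox21, Sox5 and Sox6 all neighbours overlapped.

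Over the 12 arrays, which differ in group and slide, the genes with the most similar log2 ratios to Sox1 were Rab8b (r = 0.985), Snn (0.985) and Lmo1 (0.984). Those nearest Sox4 were Zc4h2 (0.987), Aif1l (0.984) and Rab8b (0.98), those nearest Sox11 were Scrt1 (0.977), Cd24a (0.967) and Uty (0.963), and those nearest Sox9 were Oscp1 (0.993), Clip3 (0.99) and Fam168a (0.989). Sox3 was nearest to Mrpl58 (0.97), Usp51 (0.968) and Spsb4 (0.957), and Sox6 to Trak1 (0.957), Arrb1 (0.952) and Agmo (0.946). Sox2 was nearest to Eri1 (0.949), Ccdc171 (0.915) and Zfp114 (0.89), none of which passed between enriched and control cells at step 5, and Sox21 to Tbpl1 (0.928), Klhl35 (0.923) and Tgfbr1 (0.922). Nearest the brightest Sox5 probe were Vash1 (0.996) and Cplx2 (0.993), whose probes too have no C or T. Among the members Sox1 correlated at 0.95 with Sox4 and 0.96 with Sox11, and Sox2 at 0.5 or less with each of the other 8.

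Of 10 other Sox genes 8 were bright enough to test, and 4 passed at step 5, with Sox8 and Sox10 higher and Sox13 and Sox15 lower in enriched cells. Over all genes 40.4% passed at step 5. Sox10, a factor of the oligodendrocyte lineage, read 2.58, 2.91 and 3.31 in step 5 enriched cells, against 1.13, 0.17 and 1.6 in step 5 control cells, with no overlap. It rose 3.92-fold there (log2 1.97, SE 0.31, adjusted p = 0.000997), against 0.45 (adjusted p = 0.311) at step 4. Sox8, its close relative, rose 3.63-fold at step 5 (log2 1.86, SE 0.32, adjusted p = 0.00155), against 0.61 (adjusted p = 0.18) at step 4. Both also rose between steps in enriched cells, Sox10 5.71-fold (adjusted p = 0.00277) and Sox8 2.72-fold (adjusted p = 0.0276). The interaction passed for neither (adjusted p = 0.425 and 0.59).

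Among oligodendrocyte lineage markers 6 of 10 passed as higher in step 5 enriched cells, Sox10 itself among them, and none at step 4. Of 7 neural crest markers, which share Sox10, 1 passed as lower at step 4, and 1 as higher (Sox10 itself) and 1 as lower at step 5. Of all genes 15% and 20.3% passed as higher, and 16.2% and 20.2% as lower, at step 4 and step 5. Sox15, a gene of pluripotent cells, fell 2.67-fold at step 4 (log2 -1.42, SE 0.12, adjusted p = 8.88e-05) and 2.49-fold at step 5 (log2 -1.32, adjusted p = 9.29e-05) in enriched cells. Sox13 fell by 0.29 at step 5 (adjusted p = 0.0323, and 0.055 without the slide 2 controls). Sox17, an endoderm factor, was high on slide 2 in all 4 groups, at 2.28 in step 4 enriched and 3.08 in step 4 control cells and at 1.99 in step 5 enriched and 2.64 in step 5 control cells, and at 0.95 or less elsewhere. Its differences of -0.89 and -0.63 did not pass (adjusted p = 0.528 and 0.645). They passed with the slide as a block (adjusted p = 0.00299 and 0.0102), and were -0.13 and 0.13 with the slide 2 controls left out (adjusted p = 0.933 and 0.924). Sox7, Sox12 and Sox18 passed at neither step, and Sox14 and Sox30 were too dim.

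**Figure D5:**
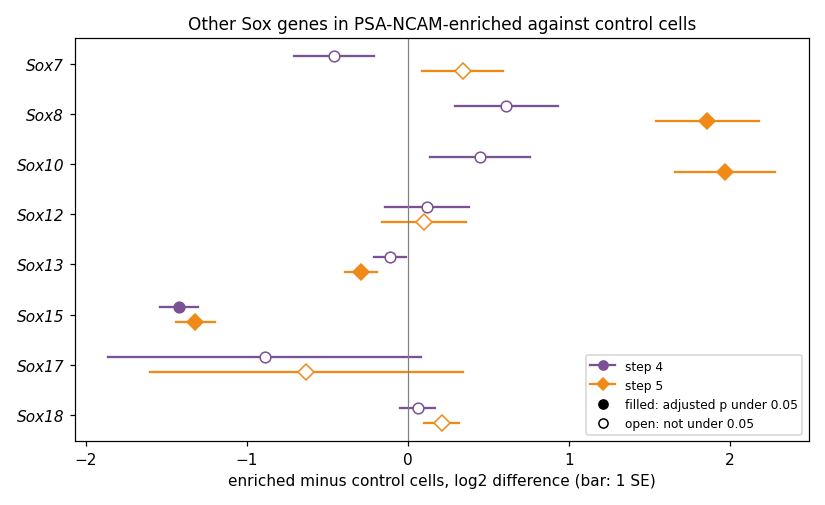
Log2 difference of enriched minus control cells (x axis) for 8 other Sox genes (y axis) at step 4 and step 5, with bars of 1 SE; filled symbols passed at adjusted p under 0.05. Sox8 and Sox10 lie at 1.86 and 1.97 at step 5, and Sox15 at -1.42 and -1.32.

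Factors that partner Sox proteins were measured by 9 of 10 listed genes. The nuclear factor I genes Nfib, Nfix and Nfia, the last named after its values were seen, were the 3 that passed as higher at each step. Of all genes 15% and 20.3% passed as higher, and 16.2% and 20.2% as lower. Nfib differed by 1.95 (SE 0.61, adjusted p = 0.034) and 2 (SE 0.61, adjusted p = 0.024), and Nfix by 1.44 and 1.25. Pou5f1 was the 1 that passed as lower, and the median difference was 0.76 and 0.93, against 0.01 and -0.01 over all tested genes. With the slide as a block 5 passed as higher at each step, and without the control arrays of slide 2 it was 2, with Nfib at 1.29 and 1.34 and Nfia no longer past the threshold (adjusted p = 0.0599 and 0.0672). The block raised the calls over all genes too, from 6950 to 8769 at step 4 and from 9028 to 10473 at step 5. Pou3f1, a POU partner of Sox2 in neural cells, differed by 0.48 (adjusted p = 0.444) and Chd7, a chromatin remodeller that binds Sox2, by 0.11 at step 5 (adjusted p = 0.806).

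Of 17 neural stem cell genes linked to SoxB1 factors, 8 were higher and 1 was lower in step 4 enriched cells, and 7 were higher in step 5 enriched cells. Of all genes 15% were higher and 16.2% lower at step 4, and 20.3% were higher at step 5. The median difference of the 17 genes was 0.87 at step 4 and 0.42 at step 5. Cdh2, which encodes N-cadherin, rose by 2.05 (SE 0.46, adjusted p = 0.00839) at step 4, and Hes5, a Notch target, by 3.77 (SE 0.92, adjusted p = 0.00883) at step 5. Zic1 rose by 1.97 (adjusted p = 0.0445) and 2.36 (adjusted p = 0.0167), and Rax, an eye-field factor, fell by 0.41 at step 4 (adjusted p = 0.0181). Msi1 differed by -0.23 and -0.2 and passed at neither step. Without the control arrays of slide 2, 3 were higher and none lower at step 4 and 7 were higher at step 5. The step 4 calls of Zic1 (1.36, adjusted p = 0.0967) and Rax (-0.32, adjusted p = 0.0534) were then lost, and Hes5 differed by 3.08 at step 5 (adjusted p = 0.0218).

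Of 14 young neuron genes linked to SoxC factors, 5 were higher in step 4 enriched cells, and 10 were higher and 3 lower in step 5 enriched cells, with median differences of 1.33 and 1.77. Of all genes 15% were higher at step 4, and 20.3% were higher and 20.2% lower at step 5. Dcx, which encodes doublecortin, differed by 2.2 at step 4 (SE 0.82, adjusted p = 0.0652, and 0.0329 with the slide as a block) and rose by 3.4 at step 5 (SE 0.82, adjusted p = 0.00832), and Mapt, which encodes tau, rose by 3.03 at step 5 (adjusted p = 0.0173, but 2.68 and 0.0661 with the slide 2 controls left out). Tubb3, a target of SoxC proteins, had 0.67, 3.21 and 3.58 in step 4 enriched cells, against 0.99, -1.11 and 1.8 in step 4 control cells, which overlapped, and 2.54, 2.35 and 2.78 in step 5 enriched cells, against 1.17, -1.67 and 0.08 in step 5 control cells, which did not. Its difference was 1.92 (SE 0.94, adjusted p = 0.146) and 2.7 (SE 0.94, adjusted p = 0.042), and the step 5 call was lost with the slide 2 controls left out (1.93, adjusted p = 0.0826).

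The 3 genes of that list that fell at step 5 were Tead2, Neurod1 and Nhlh1. Tead2, a Hippo pathway factor and SoxC target, rose by 0.57 at step 4 (SE 0.11, adjusted p = 0.00444) and fell by 0.66 at step 5 (SE 0.11, adjusted p = 0.00122), and its interaction missed the threshold (-1.23, SE 0.16, adjusted p = 0.0545). Neurod1, a proneural factor, differed by -0.45 at step 4 (adjusted p = 0.083, and 0.0222 with the slide as a block) and fell by 0.55 at step 5 (adjusted p = 0.0339), a call that was lost with the slide 2 controls left out (-0.37, adjusted p = 0.106). With the slide as a block 8 genes of the list were higher at step 4, and 3 and 7 were higher at steps 4 and 5 when the slide 2 controls were left out. Over all genes 8769 passed at step 4 in either direction with the block, against 6950 without it.

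Of 12 glial genes linked to Sox9, 2 were higher in step 4 enriched cells and 9 in step 5 enriched cells, with median differences of 1.09 and 1.91. Of all genes 15% and 20.3% were higher at these steps. Aldoc, an astrocyte glycolysis gene, rose by 3.07 (SE 0.86, adjusted p = 0.0219) and 3.49 (SE 0.86, adjusted p = 0.00903), and Aqp4, the astrocyte water channel, by 2.73 at step 5 (SE 0.86, adjusted p = 0.0282). With the slide 2 controls left out Aldoc differed by 2.32 and 2.49, both called, and Aqp4 by 1.59 at step 5 (adjusted p = 0.0715), which did not pass. Gja1, a gap junction gene, differed by 0.02 at step 4 (adjusted p = 0.976). Gfap read 5.47, 6.74 and 6.78 in step 5 enriched cells, against 4.92, 0.59 and 5.51 in step 5 control cells. Its difference of 2.66 did not pass (SE 1.05, adjusted p = 0.0671), and the groups overlapped, with the control array of slide 3 at 5.51 above the enriched array of slide 1 at 5.47 and that of slide 2 far below the rest. Leaving out the slide 2 controls, 3 and 8 genes of the list were higher, and with the slide as a block 4 and 10. Calls over all genes in either direction numbered 8769 and 10473 with the block, against 6950 and 9028 without it.

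Cartilage genes bound by Sox5, Sox6 and Sox9 passed as lower about as often as all genes did. Over all genes 15% were higher and 16.2% lower at step 4, and 20.3% were higher and 20.2% lower at step 5. Of 10 tested, none was higher and 2 were lower in step 4 enriched cells (Matn3 by 0.82 and Acan by 0.61), and 4 were higher and 2 lower in step 5 enriched cells, with median differences of 0.17 and 0.5. Col9a1 and Col9a3, which encode collagen chains, rose by 1.21 (adjusted p = 0.00542) and 1.11 (adjusted p = 0.00351) at step 5, while Col9a2 fell by 0.69 (adjusted p = 0.0414, and 0.0548 with the slide as a block). With the slide 2 controls left out 1 was higher (Col2a1, 1.52, adjusted p = 0.0141) and 2 were lower at step 4. At step 5, 3 were then higher and 1 lower, and Matn3 no longer passed (-0.47, adjusted p = 0.0569). Of 10 Sox2 and Oct4 targets of the pluripotent state, 9 were lower in enriched cells at each step, with median differences of -2.85 and -2.62. Fgf4, controlled by Sox2 with Oct4, fell by 5.33 at step 4 (SE 0.85, adjusted p = 0.00163) and by 4.66 at step 5 (SE 0.85, adjusted p = 0.00195). Utf1 fell by 1.19 and 0.81, and Lefty1, with -0.41 and -1.2, passed at neither step. With the slide 2 controls left out Lefty1 passed at step 5 (-2, adjusted p = 0.00486), and 10 of 10 were lower there.

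Markers of other cell types were counted in the same contrasts, in which 15% and 20.3% of all genes were higher and 16.2% and 20.2% lower in enriched cells at step 4 and step 5. Those shares are of the fit without a block. With the slide as a block 8769 genes passed at step 4 and 10473 at step 5 in either direction, against 6950 and 9028. Of 6 neuron markers 1 was higher in step 4 enriched cells and 5 in step 5 enriched cells (3 and 5 with the slide as a block, none and 4 without the slide 2 controls), with mean log2 ratios of 2.02 to 3.91 on step 4 enriched arrays, against 0.36 to 2.65 on step 4 control arrays, and of 3.36 to 3.84 on step 5 enriched arrays, against 0.28 to 1.73 on step 5 control arrays. Of 5 astrocyte markers none was higher at step 4 and 3 were at step 5 (none and 4 with the slide as a block, 1 and 2 without the slide 2 controls, where the step 5 median was 1.32, against 2.66 with them), and S100b was above background on no step 4 control array. Of 9 mesenchyme and feeder markers 1 was higher at step 4 and 1 lower at step 5, with Cy5 well above background for all 9 in every group. Of 7 endoderm markers none passed at step 4 and 1 was lower at step 5 (Afp), while 4 and 5 were lower with the slide as a block and none at either step without the slide 2 controls, where the median difference was -0.13 and -0.14, against -0.84 and -1.12 with them. That last fit kept the slide 2 enriched arrays, whose endoderm mean was high too (1.75 at step 4 and 1.81 at step 5). On every slide the endoderm mean was lower in enriched than in control cells at both steps. Among 6 muscle markers 1 was higher and 1 lower at step 4 and 3 were lower at step 5, and among 5 tested endothelial markers 1 was lower at each step. What these markers contribute to the Sox differences was not tested.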

How the data were processed

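The deposited scanner files give, for both dyes, the mean intensity of each spot and its local background. They also hold the log10 of the Cy5 to Cy3 ratio, which the Agilent software had background-subtracted and dye-normalized, per the file headers. The deposited table is in log2; its values equal that log ratio turned to log2 within 0.001 for 99.4 to 99.5% of probes. Feature Extraction was version 10.7.3.1 for slides 1 and 3 and 10.5.1.1 for slide 2, per the file headers. Probe positions are those of mm9, per the file headers, which do not say whether a probe lies in coding sequence or UTR. Sequences of promoters are from RefSeq (GRCm38.p6), where 7 of the 9 genes matched.

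The mean signals were corrected by normexp (offset 50) and normalized within arrays by loess in limma 3.58.1 under R 4.3.3, with control and outlier spots left out and spots of a probe averaged. Probes entered a test when the scanner software marked Cy5 as clear of background throughout at least 1 group of 3, or, against mESC, marked Cy3 so on all 12 arrays. Per array, 25605 to 29078 of 39429 probes had such a Cy5 mark. The brightest probe stood for a gene. All 12 arrays entered 1 limma model on 4 group means with eBayes, with two-sided p-values under Benjamini-Hochberg adjustment across all genes. The fit was tested on simulated data with independent noise on each array, so that test does not cover the slide effects. Precision is limited by the number of arrays.

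Same-numbered arrays lie on 1 slide, per the labels' descriptions, which pairs them. Their deviations from group means correlated at 0.463 to 0.747 between control cells of both steps, 0.341 to 0.413 between enriched cells of both steps, 0.13 to 0.644 at step 4 and 0.188 to 0.361 at step 5 between enriched and control cells, and -0.134 to 0.228 between step 4 enriched and step 5 control cells. The slide as a block was an alternative, beside other background corrections, scalings, filters, probe rules and left-out arrays. The genes and lists were chosen with earlier results of these data known. Named were the 9 genes, the 3 genes most like each (1 of those for Sox5 is not reported here), up to 4 of each list and step (the highest and lowest differences), other Sox genes and Pou5f1, Ncam1, Tubb3 and Gfap, and, chosen after their values were seen, Nfia and single markers of other cell types. Ncam1, which carries the sort antigen, rose by 1.34 at step 4 (adjusted p = 0.0372) and 1.67 at step 5 (adjusted p = 0.0112) in enriched cells.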

Additional observations from a re-analysis of the deposited data

How the results depend on the processing

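The Sox results were recomputed under 24 alternatives, 12 settings and 12 single arrays left out, except that the interaction has no fit on only the groups compared and Sox6 did not pass the filter on all 12 arrays. Genes with several probes were also computed with the next probe. The gene lists were recomputed with the replicate block and without the slide 2 control arrays. The enrichment differences of Sox1, Sox3, Sox4, Sox11, Sox6 and Sox9 were above 0 under all that were run. At step 4 the call of Sox1 was lost under 1 alternative, that of Sox4 under 5, Sox9 under 6 and Sox11 under 8. At step 5 Sox1 lost none, Sox3, Sox4 and Sox11 lost 1 each, Sox9 2 and Sox6 6. These tallies leave out the next probe, with which Sox1 passed at neither step (0.07, limma adjusted p = 0.637, and 0.23, adjusted p = 0.0723). Sox4 and Sox11 kept their calls at both steps with theirs. The members called at step 4 numbered 7 with arrays centred on the median, 0 without slide 2 and 2 without its control arrays, and 1 to 6 with single arrays left out; at step 5 they numbered 2 (Sox1 and Sox3) without slide 2 and 4 to 6 with single arrays left out. Fewer arrays also widen the test. Among calls of the 9 genes the replicate block changed those of Sox3 at step 4 (1.72, adjusted p = 0.0218) and of Sox6 in step 5 control cells against mESC (0.37, adjusted p = 0.0283) and no other. Left-out arrays gave 0 to 1 member between steps in enriched cells and 3 to 7 in step 5 control cells against mESC.

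Over all genes, 3017 passed at step 4 and 5772 at step 5 without slide 2, and 4341 to 7712 at step 4 with single arrays left out. Median centring moved the median enrichment difference of all genes to 0.141 and 0.147 and the split to 4782 higher and 2577 lower at step 4 and to 5957 higher and 3057 lower at step 5, against 3340 and 3610, and 4528 and 4500. Between steps in enriched cells the counts were 2440 with the replicate block, 939 with only the groups compared, 310 without slide 2 and 445 to 1764 with arrays left out. In control cells they were 2 with the deposited values, 1 with the block, 81 without slide 2, 184 without its control arrays and 0 to 408 with arrays left out. The interaction gave 7 genes with no background correction, 1 with median centring, 1 with the deposited values, 8 with the mean of a gene's probes, 9 without the slide 2 controls and 0 to 16 with arrays left out. Step 5 control cells against mESC gave 6094 with only those arrays, and step 4 control cells 5768 to 9392 with arrays left out.

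Values that changed sign passed on neither side, apart from 3 named here, and not all of them were near 0. Without slide 2 Sox2 read -0.13 at step 4 and -0.16 at step 5 for enriched against control cells, without its control arrays -0.11 and -0.2 (Sox5 -0.03 at step 5), and with the deposited values -0.05 at step 5. Single arrays left out gave -0.11 to 0.23 and -0.22 to 0.24 for Sox2, -0.01 to 0.16 for Sox21 and -0.03 to 0.54 for Sox5 at step 5. Between steps, Sox9 in control cells read -0.02 with no background correction and -0.07 with the deposited values, and with arrays left out -0.53 to 0.92, Sox2 -0.36 to 0.07 in control and -0.46 to 0 in enriched cells, and Sox4 -0.73 to 0.03 in enriched cells. The interaction read 0.01 for Sox2 with median centring and, without the slide 2 controls, -0.1 for Sox5, -0.02 for Sox6 and -0.11 for Sox9; arrays left out gave -0.31 to 0.16 for Sox2, -0.19 to 0.61 for Sox4, -0.29 to 0.28 for Sox5 and -0.57 to 0.88 for Sox9. Sox21 in step 4 control cells against mESC read 0 with no background correction, 0.19 with median centring, 0.14 with the mean of probes, 0.03 without slide 2 or its control arrays, 0.3 with the second probe and -0.11 to 0.03 with arrays left out. In step 5 cells median centring gave Sox21 0.42 in enriched (adjusted p = 0.0234) and 0.04 in control cells, the mean of probes 0.29 in enriched cells, and Sox6 in step 4 control cells -0.06. The second probe, chosen after seeing the data, gave 0.7 for Sox21 in step 5 enriched cells (adjusted p = 0.0478), -0.09 for Sox1 in step 5 control cells, where the brightest probe passed, and -0.08 for Sox5 between steps in control cells. The causes were not tested. Signals near background limit Sox6 and both dimmer Sox5 probes.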
